A study of Mus musculus with 8 samples.

Results

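Neuronal microtubule-associated protein genes were described here through the RNA that Ptbp2 contacts at their loci. The 4 genes were Map2, Mapt, Map1b and Dclk1. Each was defined by a fixed interval of the mm9 genome on the strand of the gene, and a sequenced fragment (a tag) belonged to a gene when its midpoint lay in that interval. Map2 was taken as chromosome 1 plus strand from 66221000 to 66490000 and Mapt as chromosome 11 plus strand from 104092000 to 104195000. Map1b was taken as chromosome 13 minus strand from 100190000 to 100287000 and Dclk1 as chromosome 3 plus strand from 55045000 to 55344000. Together they held 5985 of 3098854 tags, or 0.193%.

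The tags came from Ptbp2 HITS-CLIP, in which RNA is fixed by ultraviolet light to a protein, purified with it and sequenced. The tissue was embryonic mouse cortex, CD1 strain and labelled wild type, at embryonic day 18.5, and all libraries share genotype, strain and stage. There were 2 brains with 4 libraries each. The libraries of a brain share its animal, so their spread is technical. No library of input RNA or of another antibody was analysed here, so a level reflects binding and transcript abundance together. In a bulk sample, fewer neurons and less RNA per neuron cannot be told apart either.

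Microtubule-associated proteins bind and stabilise the microtubules of axons and dendrites and serve as classical markers of neurons. Map2 is enriched in dendrites and Mapt (tau) in axons, and these related proteins share a repeat domain that binds microtubules. Map1b, a large protein cleaved into a heavy and a light chain, is prominent in growing axons of the developing brain. Dclk1 joins a doublecortin-type microtubule-binding region to a kinase domain and acts in neuronal migration and axon growth. Ptbp2 is a neuronal RNA-binding protein that prefers pyrimidine-rich RNA and controls the alternative splicing of many developing transcripts. Transcripts of Map2 and Mapt are spliced differently in the embryonic and the adult brain.

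The intervals matched bounded stretches of tags on the strand of each gene. Tag density was 7.03 per kb in Map2, 7.59 in Mapt, 15.7 in Map1b and 5.97 in Dclk1. In the 50 kb before the 5′ end it was 0.12, 0.22, 1.52 and 0.42 tags per kb in the same order. In the 50 kb past the 3′ end it was 0.58, 0.26, 0.08 and 0.40 per kb. The opposite strand of the intervals held 42 tags in Map2, 57 in Mapt, 8 in Map1b and 55 in Dclk1, between 0.521% and 6.79% of the tags on both strands. The median share on the emptier strand was 15.7% over 10013 windows of 100 kb with 100 or more tags. In the RefSeq gene table of another build, GRCm38.p6, Map2 overlaps a lncRNA, a snoRNA and pseudogenes, Mapt a snoRNA, Dclk1 an snRNA and lncRNAs, and Map1b no listed gene. Whether these lie on the strand of the host gene was not checked. Tags of any that do cannot be told from those of the host transcript.

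Libraries held between 228424 and 545387 tags, 1932995 in brain 1 and 1165859 in brain 2. The share of tags that repeated a position already seen in the same library was 8.09% to 18.6%, highest in library 4 of brain 2. Per gene, over all libraries, it was 16.2% in Map2, 17.5% in Mapt, 20.6% in Map1b and 16.8% in Dclk1, against 11.5% over all tags.

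Map2 drew the most tags of the 4 genes. Scaled to tags per 1000000 tags of each library (CPM), Map2 held 686, 733, 590 and 581 CPM in libraries 1 to 4 of brain 1. In brain 2 it held 546, 456, 660 and 512 CPM. The brains overlapped, since library 3 of brain 2 lay above 2 libraries of brain 1. The means were 647 ± 74.3 CPM in brain 1 and 543 ± 86.2 CPM in brain 2 (SD, n = 4 libraries each).

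Mapt drew the fewest tags. Its levels were 270, 238, 250 and 285 CPM in brain 1 and 236, 210, 264 and 241 CPM in brain 2. The brains overlapped here too, with means of 261 ± 20.97 and 238 ± 22.3 CPM (SD, n = 4). Mapt had the smallest spread of the 4 genes, with all 8 libraries between 210 and 285 CPM.

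Map1b held 515, 570, 463 and 477 CPM in brain 1 and 438, 425, 490 and 543 CPM in brain 2. The means were 506 ± 47.5 and 474 ± 53.8 CPM (SD, n = 4). The highest library of brain 2, the fourth, lay above 3 libraries of brain 1.

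Dclk1 held 638, 679, 587 and 545 CPM in brain 1 and 426, 474, 593 and 556 CPM in brain 2. The means were 612 ± 58.3 and 512 ± 75.8 CPM (SD, n = 4), and the brains overlapped. In brain 1 the libraries whose titles carry the letter a (libraries 1 and 2) averaged 658 CPM and those with the letter b 566. In brain 2 the order was the other way round, with 450 and 574 CPM. Map2 (709 and 585, then 501 and 586 CPM) and Map1b (542 and 470, then 431 and 516 CPM) crossed likewise. Mapt did not, with 254 and 268 CPM in brain 1 and 223 and 252 CPM in brain 2. The labels do not say what the letter stands for. This split was made after the data were seen, and the 4 loci were counted in the same libraries. How many other features cross in this way was not counted, and no test was made.

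**Figure D1:**
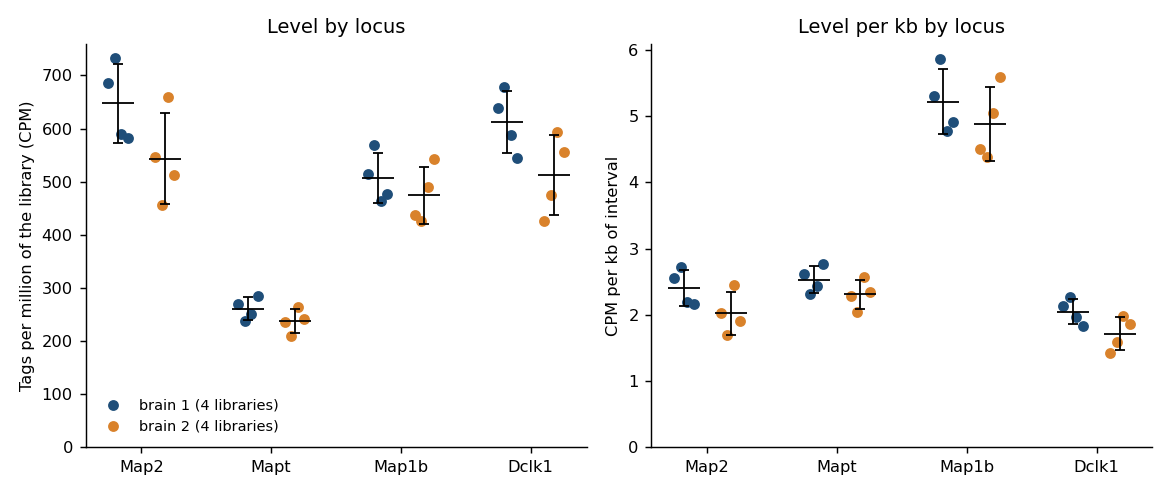
Level of each locus by library as CPM (left) and as CPM per kb of interval (right); points are libraries, horizontal bars are means and whiskers SD of 4 libraries. Map2 is highest on the left and Map1b on the right, where its 8 libraries lie between 4.38 and 5.87 CPM per kb and those of the other loci between 1.43 and 2.77.

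Per length of the interval, the order changed and Map1b stood clear of the rest. Map1b averaged 5.05 ± 0.516 CPM per kb, Mapt 2.42 ± 0.229, Map2 2.21 ± 0.345 and Dclk1 1.88 ± 0.275 (SD, n = 8 libraries). Map1b was 2.10 ± 0.253 times as dense as Mapt, the next in order, and was denser in 8 of 8 libraries, with no overlap of their ranges. Mapt lay above Map2 in 7 of 8 libraries and Map2 above Dclk1 in 8 of 8, but the ranges of these neighbours overlapped. Without length, Map2 lay above Dclk1 in 6 of 8 libraries and Dclk1 above Map1b in 7 of 8, again with overlapping ranges, while Map1b lay above Mapt in 8 of 8. All 4 loci were dense for this data set. Among 9964 other strand-specific windows of 100 kb that passed the count filter, the median was 1.24 tags per kb. The share of these windows with fewer tags per kb than the locus was 99.8% for Map1b, 98.0% for Mapt, 97.6% for Map2 and 96.6% for Dclk1. The windows lie on a fixed grid and can straddle the ends of genes, which the intervals do not.

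Tags were spread differently along the 4 genes. The profile was read in 10 kb bins counted from the 5′ end of each interval, and the stretches named below were chosen after the profile was seen, so they are descriptions with no test. In Map2 the tags lay throughout, with a fuller start and a fuller end. The first 50 kb held 548 tags (10.96 per kb), the next 150 kb 793 tags (5.29 per kb) and the last 39 kb 374 tags (9.59 per kb). The density of the first 50 kb was 2.07 times that of the next 150 kb, between 1.68 and 4.50 times in single libraries. The highest of these ratios came with a low share in the middle stretch in library 4 of brain 2, 23.9% of its Map2 tags, against 38.7% to 49.1% in the other libraries.

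The fullest bin of Map2 was its first, from 66221001 to 66231000, with 181 tags or 9.57% of the locus. Its libraries held 37, 33, 18 and 29 tags in brain 1 and 14, 13, 21 and 16 in brain 2. The second bin, from 66231001 to 66241000, dropped to 19 tags, of which 18 came from brain 1 and 1 from brain 2. The third rose again to 168 tags, from 104 in brain 1 and 64 in brain 2. A low bin thus lay between 2 full ones in both brains. Bins also differed between the brains in both directions. The ninth bin of Map2, from 66301001 to 66311000, averaged 22.4 ± 8.57 CPM over the libraries of brain 1 and 5.56 ± 5.13 over those of brain 2 (SD, n = 4), and the 23rd, from 66441001 to 66451000, held 10.9 ± 3.14 and 21.2 ± 8.25 CPM. Mean CPM was lower in brain 2 in 19 of 27 bins of Map2, 6 of 11 of Mapt, 7 of 10 of Map1b and 23 of 30 of Dclk1. Over all tested 10 kb windows of the data set the median log2 change (brain 2 minus brain 1) was -0.17, also below 0. Bins of a locus share libraries and transcript, and the count of lower bins was not made over the whole data set. The second, ninth and 23rd bins of Map2 were chosen after their values were seen, and none had enough tags to be tested in the windows used for the comparison of the brains.

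In Mapt the tags gathered at the 3′ end. The last 33 kb, 32.0% of the interval, held 551 of 782 tags (70.5%) and 11 of its 13 clusters. By library the share of Mapt tags in this stretch was 71.4%, 73.4%, 66.1% and 69.4% in brain 1 and 76.2%, 65.2%, 73.3% and 69.1% in brain 2. The stretch was thus the fuller part in each of the 8 libraries, with means of 70.1 ± 3.12% and 70.96 ± 4.81% (SD, n = 4). Its density of 16.7 tags per kb was 5.06 times the 3.30 per kb of the first 70 kb. With clusters left out, the ratio was still 3.18, at 9.30 against 2.93 tags per kb. The fullest bin of Mapt, the ninth, ran from 104172001 to 104182000 and held 191 tags, from 117 in brain 1 and 74 in brain 2. The last 3 kb, from 104192001 to 104195000, were the densest bin of Mapt at 31.0 tags per kb.

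Map1b was full at both ends and thinner between. Its first 30 kb held 456 tags (15.2 per kb), the middle 40 kb 295 tags (7.38 per kb) and the last 27 kb 776 tags (28.7 per kb). Single libraries put 45.2% to 54.9% of their Map1b tags in the last 27 kb, which make up 27.8% of the interval. The density there was 3.90 times that of the middle, between 2.96 and 4.55 times in single libraries. Outside clusters of height 10 or more this ratio was 2.10, at 10.6 against 5.03 tags per kb. The fullest bin, the ninth, ran from 100197001 to 100207000 and held 272 tags. The last 7 kb, from 100190001 to 100197000, reached 36 tags per kb.

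Dclk1 had separate islands of tags and a long gap between them. Its 3 fullest bins, the ninth, the 15th and the 17th, held 206, 166 and 160 tags, together 29.8% of the locus in 10.03% of its length. The 3 bins from 55155001 to 55185000 held 9, 6 and 12 tags, or 0.90 tags per kb. By library this gap held 4, 5, 4 and 8 tags in brain 1 and 2, 0, 4 and 0 in brain 2. The fullest bin ran from 55125001 to 55135000, directly beside bins of 29 and 26 tags, and 123 of its 206 tags came from the deeper brain 1. The fullest and the emptiest full-width bin differed 34.3-fold in Dclk1, against 9.53-fold in Map2, 7.96-fold in Mapt and 6.18-fold in Map1b. Such a ratio can grow with the number of full-width bins, which was 29, 26, 10 and 9 in the same order. The emptiest bin of Dclk1 held only 6 tags.

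**Figure D2:**
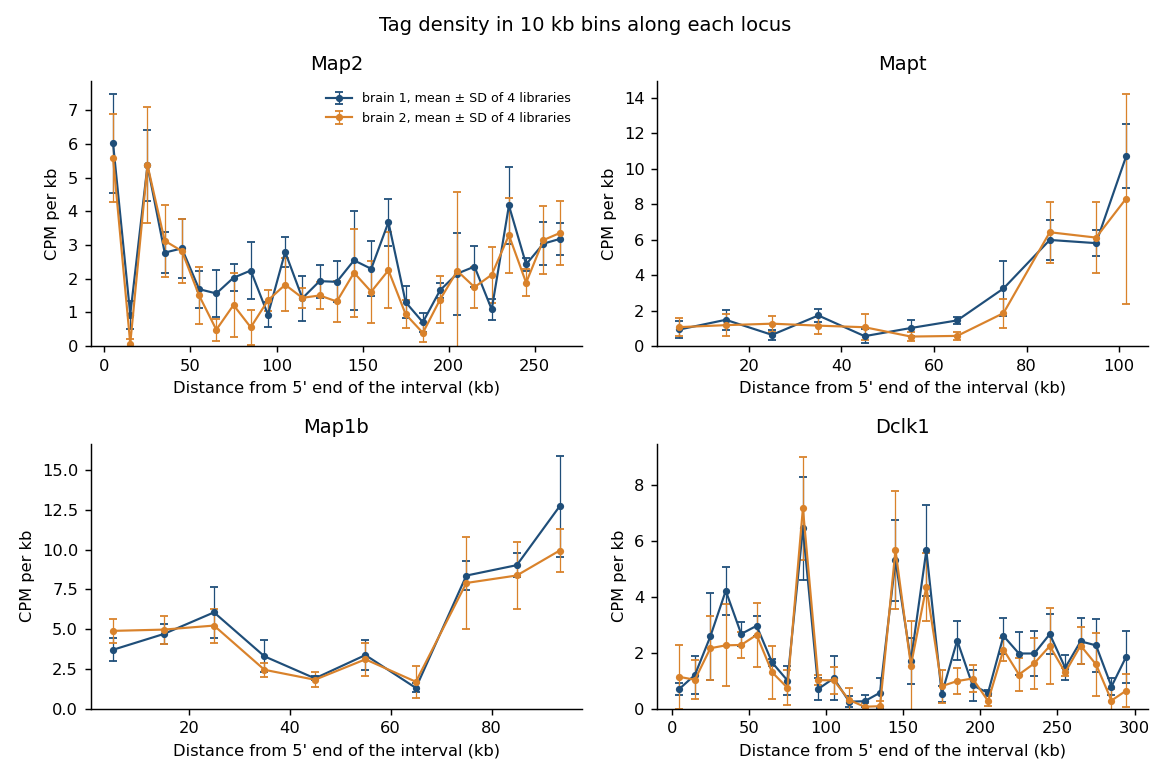
Tag density in CPM per kb in 10 kb bins along each locus, with distance from the 5′ end of the interval in kb on the horizontal axis; lines join means of 4 libraries of a brain and whiskers are SD. The lines of both brains rise toward the 3′ end in Mapt and Map1b and share the island at 80 to 90 kb in Dclk1.

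The profiles of the 2 brains followed each other. Over full-width bins, Spearman's rho between the pooled tags of brain 1 and brain 2 was 0.83 in Map2 (26 bins), 0.64 in Mapt (10 bins), 1.00 in Map1b (9 bins) and 0.93 in Dclk1 (29 bins). Pearson's r was 0.90, 0.96, 0.97 and 0.94. These are descriptions, since bins of a locus share transcript, libraries and base composition. In Mapt, 7 of the 11 bins held between 24 and 47 tags, close to each other in level.

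The share of tags on the 5′ side of the interval's midpoint gave 1 value per library that depth does not scale. Pooled over libraries, the 5′ side held 51.5% of tags in Map2, 52.4% in Dclk1, 39.6% in Map1b and 22.5% in Mapt. In Map2 the share was 51.9 ± 0.846% in brain 1 and 50.3 ± 2.33% in brain 2 (SD, n = 4, two-sided exact permutation p = 0.257). In Mapt it was 21.7 ± 3.93% and 24.3 ± 3.70% (exact permutation p = 0.343). In Map1b it was 38.9 ± 3.24% and 40.7 ± 2.95% (exact permutation p = 0.457). In Dclk1 it was 50.5 ± 4.18% and 55.7 ± 3.96% (exact permutation p = 0.143). With 4 libraries against 4 the smallest p this test can give is 0.0286, and none of the 4 differences exceeded the spread between libraries by it. The test takes the 4 libraries of a brain as exchangeable, although libraries 1 and 2 of each brain were more alike than the other pairs. All 8 libraries lay under 50% in Mapt (18.3% to 28.99%) and in Map1b (36.02% to 45.0%), while Map2 and Dclk1 had 5 of 8 above it. With the tags of clusters left out, the pooled share on the 5′ side was 50.2% in Map1b and 29.3% in Mapt. In Map2 and Dclk1 it was 50.8% and 51.2%. About the midpoint, Map1b tags outside clusters thus showed no 3′ lean. They were still denser in the last 27 kb (10.6 per kb) than in the middle 40 kb (5.03 per kb). The first 30 kb of Map1b held 9.10 per kb outside clusters.

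Within the loci, overlapping tags formed clusters. Tags of all libraries that overlapped by 1 nt or more were joined, and height counts the tags over the most covered base. The 4 loci held 88 clusters of height 10 or more among 22803 in all. Map1b had 35, Map2 23, Dclk1 17 and Mapt 13. Per 100 kb of interval that is 36.1 in Map1b, 12.6 in Mapt, 8.55 in Map2 and 5.69 in Dclk1, the same order as the tag densities. Clusters held 50.3% of the tags in Map1b, 34.5% in Mapt, 23.2% in Map2 and 22.6% in Dclk1, against 15.7% over the whole data set. Height grows with depth, so these counts hold for the pooled tags. A fixed height is also reached more easily where tags are dense, as in these 4 loci. Neither the counts nor the shares of tags in clusters were adjusted for density. Without library 1 of brain 1, Map2 had 14 and Dclk1 10, and Dclk1 also had 10 without library 2 of brain 1. When tags of a library at the same position counted as 1, Map2 had 10 clusters, Mapt 10, Map1b 24 and Dclk1 12.

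Clusters of Map1b lay close together. The locus also had the most clusters per 100 kb of the 4 (36.1), and the shares below were not adjusted for this density. Of its 35 clusters, 29 (82.9%) had another within 1000 nt, against 5 of 23 in Map2, 5 of 13 in Mapt and 2 of 17 in Dclk1, and 20.2% of all 22803 clusters. The longest chain at this distance ran from 100192039 to 100193810 in the last bin of Map1b, with 6 clusters and 146 tags in 1772 nt, 95 from brain 1 and 51 from brain 2. The next ran from 100200833 to 100202011 with 5 clusters and 124 tags. From 100205237 to 100205533, 3 clusters with 43 tags followed each other within 297 nt. Mapt had a chain of 3 clusters and 60 tags from 104192841 to 104193149, in its last 3 kb. Map2 had 3 clusters with 38 tags from 66486409 to 66487259, also near its 3′ end. The only pair of Dclk1, from 55191434 to 55192177, held 22 tags.

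**Figure D3:**
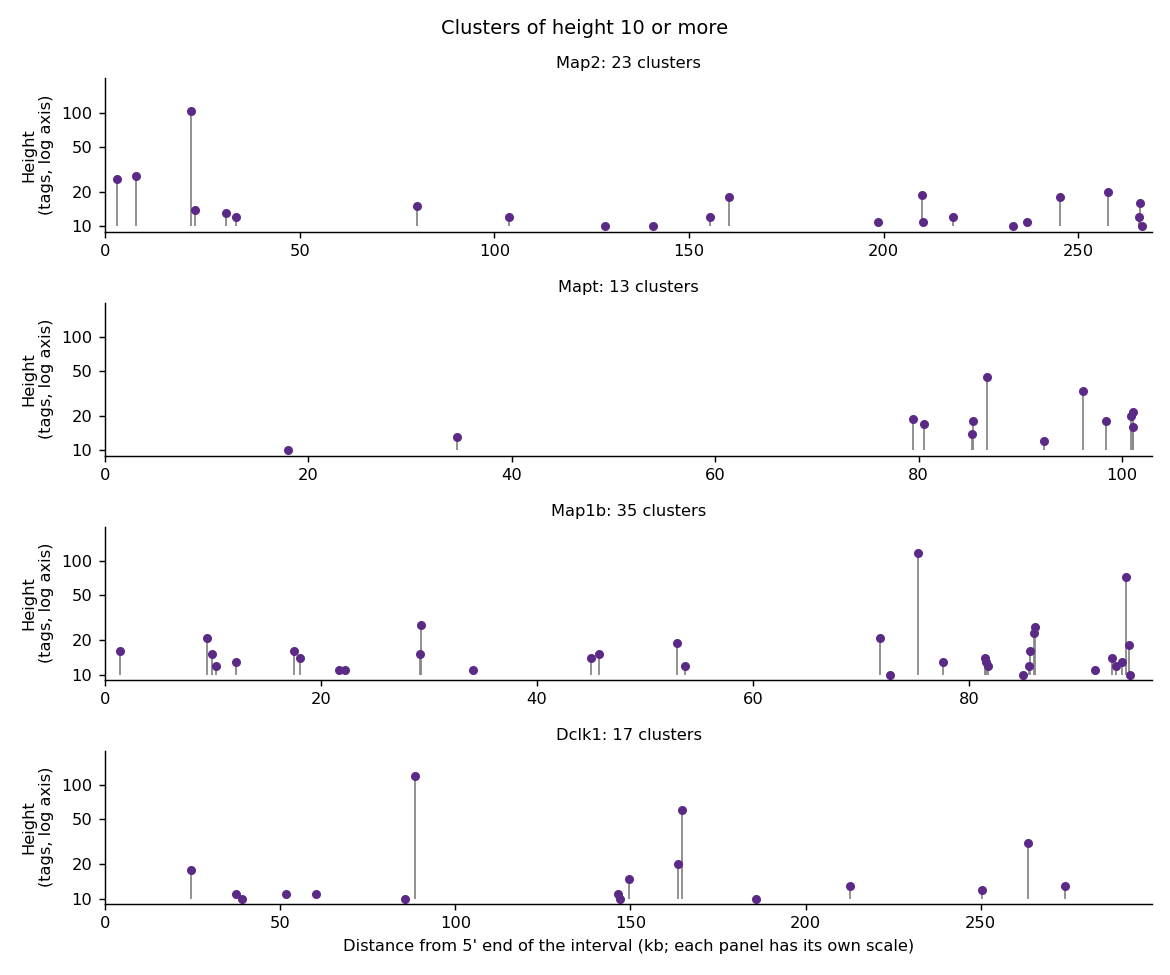
Position and height of each cluster of height 10 or more in the 4 loci, with distance from the 5′ end of the interval in kb on the horizontal axis and height in tags on a log axis. Map1b shows 35 clusters, crowded toward the 3′ end, and Dclk1 17 scattered ones with the tallest, of 120 tags, at 88.4 kb.

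The clusters of the 4 loci were somewhat wider than those of the whole data set. Joining of overlapping tags can widen clusters where tags are dense, and widths were not adjusted for density. The median width was 45.0 nt in Map2 and Dclk1, 49.0 in Mapt and 58.0 in Map1b, against 42.0 nt over all clusters. Tags of both brains were present in 86 of the 88 clusters, where 99.1% of all clusters held both. All 8 libraries were present in 23, where 23.8% of all clusters held them. Neither count set the loci apart from the data set. Single tag positions held over 50% of the tags in 24 of the 88, or 8 in Map2, 5 in Mapt, 7 in Map1b and 4 in Dclk1, against 33.4% of all clusters. A height of 100 was reached by 3 clusters, the tallest of Dclk1, Map1b and Map2, among 220 in the whole data set.

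The tallest cluster of Map2 lay 22.2 kb from the 5′ end, from 66243146 to 66243189, with a height of 103. It held 29.3, 21.8, 34.8 and 27.7 CPM in brain 1 and 26.2, 36.5, 64.5 and 30.6 CPM in brain 2. The brains overlapped, with means of 28.4 ± 5.35 and 39.5 ± 17.2 CPM (SD, n = 4). Its 103 tags began at 8 different 5′ ends, and the fullest of its 19 positions held 32.0%. This single cluster made up 5.44% of the Map2 tags and most of the third bin. The next in height lay in the first bin. They ran from 66228879 to 66228923 (height 28, all 8 libraries) and from 66224140 to 66224240 (height 26, all 8 libraries). The latter held 28 tags at 14 positions, with 17.9% at the fullest, and was therefore spread rather than stacked.

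The tallest cluster of Mapt lay 86.8 kb from the 5′ end, from 104178749 to 104178793, with a height of 44. It held 12.8, 13.1, 2.18 and 17.035 CPM in brain 1 and 14.96, 24.3, 14.7 and 21.9 CPM in brain 2. Library 3 of brain 1 was the low one, with 1 tag of 44. The means of 11.3 ± 6.37 and 18.95 ± 4.88 CPM (SD, n = 4) came from overlapping libraries. The second, from 104188161 to 104188201, had a height of 33. It held 3.67, 10.9, 4.35 and 8.52 CPM in brain 1 and 14.96, 12.2, 11.7 and 35.0 CPM in brain 2. Here the 4 libraries of brain 2 lay above those of brain 1, by little at the nearest pair, and library 4 of brain 2 stood far above the other 3. The brains failed to overlap in 4 of the 88 clusters, against 4.28% of all clusters, and 2 of these 4 were in Mapt and 2 in Map2. The third cluster of Mapt, from 104193110 to 104193149, had 22 tags at 5 positions, 54.5% of them at the fullest, and came from 6 libraries.

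The tallest cluster of Map1b was a stack. It lay 75.3 kb from the 5′ end, from 100211650 to 100211708, with a height of 116. It held 42.2, 37.1, 39.2 and 42.6 CPM in brain 1 and 14.96, 36.5, 26.4 and 61.3 CPM in brain 2. Brain 1 was even and brain 2 spanned a wide range on both sides of it, with means of 40.3 ± 2.602 and 34.8 ± 19.7 CPM (SD, n = 4). Of its 117 tags, 90 (76.9%) shared a single start and end, and counting a position once per library left 30. The second, from 100192446 to 100192517, had a height of 72 with 73 tags at 20 positions, and 44 tags remained when positions were counted once per library. It held 16.5, 41.5, 8.70 and 17.035 CPM in brain 1 and 18.7, 36.5, 23.5 and 35.0 CPM in brain 2. The third, from 100257691 to 100257778, lay in the 5′ part of the locus with a height of 27.

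The tallest cluster of Dclk1, from 55133359 to 55133423, was the tallest of the 4 loci, with a height of 120. It held 27.5, 41.5, 43.5 and 53.2 CPM in brain 1 and 18.7, 36.5, 44.0 and 52.5 CPM in brain 2. The brains overlapped, with means of 41.4 ± 10.6 and 37.9 ± 14.4 CPM (SD, n = 4). Unlike that of Map1b it was spread over many ends. Its 123 tags took 21 positions, with 22.0% at the fullest, and 65 tags remained when positions were counted once per library. It made up most of the fullest bin of the locus. The second, from 55209590 to 55209654, had a height of 60 and 57.4% of its tags at 1 position. It held 31.2, 10.9, 21.8 and 21.3 CPM in brain 1 and 14.96, 12.2, 11.7 and 30.6 CPM in brain 2. The third, from 55308547 to 55308587, had a height of 31 and no tag in libraries 2 and 3 of brain 2.

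**Figure D4:**
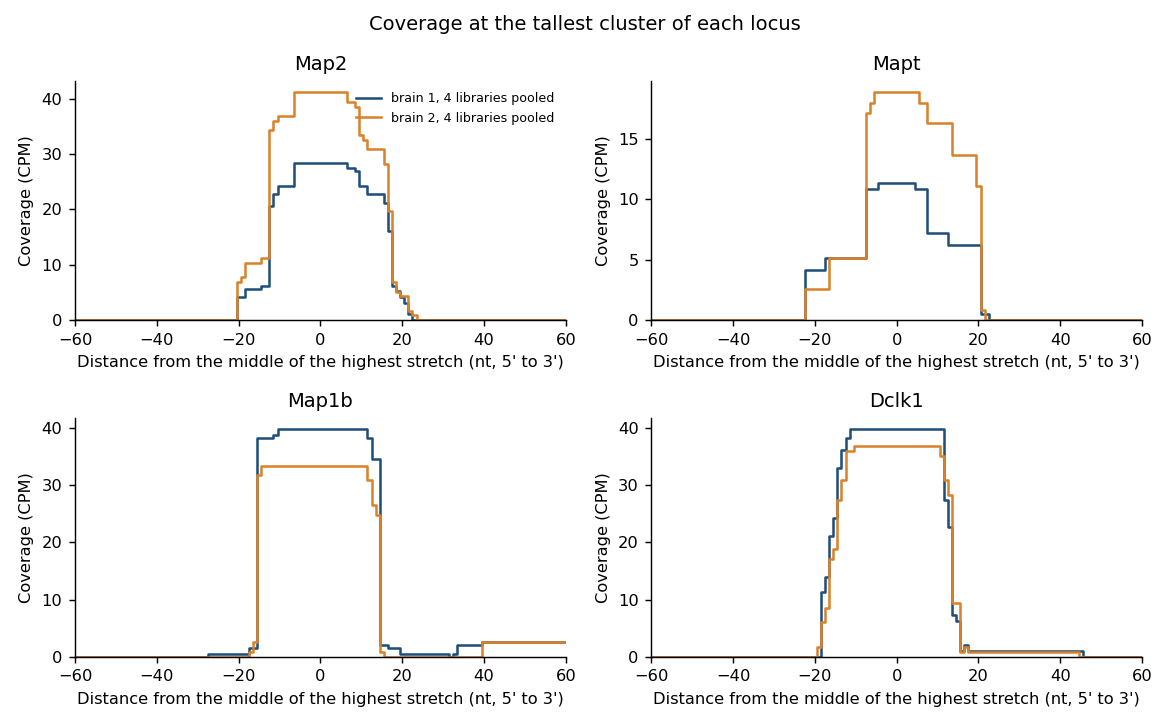
Coverage in CPM of the tallest cluster of each locus, with distance in nt from the middle of its highest stretch (5′ to 3′ along the RNA) on the horizontal axis; lines pool the 4 libraries of a brain. The steep edges in Map1b come with 76.9% of tags at 1 position, and the stepped edges in Dclk1 with 22.0%.

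A separate call in either brain used a height of 5 or more. Brain 2, the shallower, had 16 in Map2, 11 in Mapt, 24 in Map1b and 16 in Dclk1. Of these, 11, 10, 19 and 12 overlapped a cluster called in brain 1. In the other direction 11 of 49 clusters of brain 1 in Map2, 11 of 23 in Mapt, 20 of 48 in Map1b and 12 of 38 in Dclk1 overlapped one of brain 2. As shares these are 68.8%, 90.9%, 79.2% and 75% of the clusters of brain 2 and 22.4%, 47.8%, 41.7% and 31.6% of those of brain 1. Over the whole data set, 66.7% of 21063 clusters of brain 2 and 32.98% of 42612 clusters of brain 1 overlapped one of the other brain. Mapt and Map1b had higher shares than these in both directions, and the differences were not tested. The deeper brain passes a fixed height more often, so these shares move with depth.

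The 2 brains were compared for the level of each locus. The 4 loci were fitted with all 100 kb windows that lie outside them by limma voom, with p-values adjusted by Benjamini and Hochberg over 9968 features. None of the 4 loci was called, where 42 features (0.421%) were called in all at an adjusted p of 0.05. Of these, 34 (0.341%) had less and 8 (0.0803%) more in brain 2. With median-of-ratios scaling the split was 34 higher and 27 lower. Map2 had a log2 change of -0.28 ± 0.12 (brain 2 minus brain 1, SE, adjusted p = 0.270). Dclk1 had -0.29 ± 0.12 (adjusted p = 0.257), Mapt -0.17 ± 0.15 (adjusted p = 0.675) and Map1b -0.14 ± 0.12 (adjusted p = 0.681). All 4 values lay below 0, as did the median over all features, which was -0.10. Before adjustment, the limma voom p-values of Map2 and Dclk1 were under 0.05, as were those of 13.8% of all features and, counting only those lower in brain 2, 10.4%. In none of the 4 loci did the libraries of one brain all lie beyond those of the other, which was so in 7.01% of features (5.17% with brain 2 lower). The count of 42 moved between 10 and 160 when single libraries were left out.

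**Figure D5:**
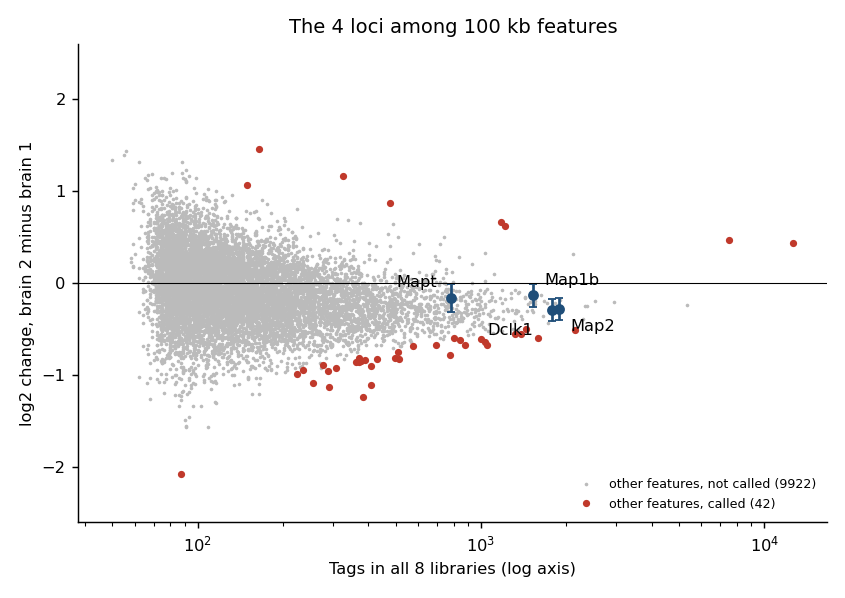
Log2 change between the brains (brain 2 minus brain 1) against tags in all libraries on a log axis, for the 4 loci (blue, with SE) and 9964 other 100 kb features (grey, or red where called). The 4 loci lie between -0.29 and -0.14, inside the grey cloud.

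Inside the loci the comparison was repeated in 10 kb windows of a fixed grid. Enough tags for a test were present in 10 of 28 windows in Map2, 3 of 11 in Mapt, 7 of 10 in Map1b and 6 of 31 in Dclk1. None of these was called by limma voom, where 13 of 3756 windows (0.346%) were called in all. Of the members' windows 0 had an unadjusted p under 0.05, where 9.40% of all windows did (5.59% lower in brain 2), and in 0 did the brains not overlap, against 6.92% (5.03% lower in brain 2). Over all tested 10 kb windows the median log2 change was -0.17. A window can pass the count filter through the libraries of 1 brain alone, and the part of this in the ranges below was not tested. In the loci the log2 changes ran from -0.63 to 0.23 in Map2 and from -0.31 to 0.10 in Mapt. They ran from -0.31 to 0.15 in Map1b and from -0.84 to 0.16 in Dclk1. The lowest, in the Dclk1 window from 55100001 to 55110000, was -0.84 ± 0.53 (SE, adjusted p = 0.607), with 15, 15, 19 and 18 tags in brain 1 and 8, 3, 8 and 4 in brain 2. The window that holds the tallest Dclk1 cluster, from 55130001 to 55140000, gave 0.16 ± 0.23 (SE, adjusted p = 0.800). The window of the tallest Map1b cluster, from 100210001 to 100220000, gave -0.08 ± 0.24 (SE, adjusted p = 0.903). A window with few tags could hide sizeable differences, so these values show no difference larger than the spread and not that the windows are alike.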

How the data were processed

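The deposited file lists mapped tags, 1 row each, and its score column, as the authors deposited it, holds 0 throughout and carries no measurement. Tag names open with a library code that matches the sample titles. Bowtie and the builds mm8 and mm9 are named per the submitters' processing notes. Tags reach position 197194446 on chromosome 1, so coordinates are read as mm9 and counted from 1. Whether repeated reads were collapsed is not stated in the sources used.

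Rows were counted by tag midpoint. CPM divides by the library's rows. A feature was tested if 4 or more libraries reached the CPM of 10 tags at median depth and all libraries together held 15 tags. Scaling used trimmed means of log ratios, and brains were compared with limma 3.58.1 (voom) in R 4.3.3, tested on simulated data. Exact permutation tests were two-sided. These tests and the limma fits took the 4 libraries of a brain as separate units, although each brain is 1 animal. In each locus the 3 tallest clusters and the fullest bin are named. The members, lists and tests were chosen with earlier results of these data known. The most alike libraries of a brain, 1 and 2, still differed beyond counting noise (chi-square per degree of freedom 1.14 in each brain). Exons, introns, UTRs, sequences and other genes of the pathway were not analysed here, since no mm9 annotation was used. Alternatives were other scalings, no filter, the replicate block, libraries left out, repeated positions counted once, 50 kb windows and other cluster rules.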

Additional observations from a re-analysis of the deposited data

Results flagged for a closer look

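Among 48 sets made of the 4 libraries of a brain, 3 contained an outlying library, and about 1 in 20 sets would by chance. For the Map2 cluster that starts at 66224140, library 1 of brain 1 held 7.33 CPM, below the other 3, although each of the 4 libraries held 4 tags. With equal tags, these CPM values differed only through the library totals. Library 4 of brain 2, the shallowest and the one with most repeated positions, gave the remaining flags. It held 35.0 CPM of the Mapt cluster that starts at 104188161, from 8 tags against 4 in each other library of brain 2. It also held 30.6 CPM of the Dclk1 cluster that starts at 55209590, from 7 tags against 4 in each other library of brain 2. The part of depth and repeated positions in the flags of library 4 of brain 2 was not tested.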

How the results depend on the processing

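The change of each locus between brains kept its direction and stayed uncalled under all 14 alternatives, with log2 values from -0.40 to -0.17 in Map2, -0.25 to -0.05 in Mapt, -0.22 to -0.02 in Map1b and -0.38 to -0.17 in Dclk1 and a lowest adjusted p (limma voom) of 0.0916, in Dclk1. No 10 kb window of the loci was called under any of its 12 alternatives. Another scaling moved the median log2 change of the 100 kb features from -0.10 to 0.02 (median of ratios), so values near 0 rest on the scaling. Of 9968 features tested, 42 were called as reported and 15 with the replicate block. With repeated positions counted once, 115 of 8481 were called. With 50 kb windows, which are different features, 26 of 8369 were called. With a library left out the count was 10 to 160, lowest without library 1 of brain 1 and highest without library 4 of brain 2. The number tested changed there too, and the cause was not tested. The block changed no call of a locus, and same-numbered libraries of the brains did not deviate together (correlations -0.032 to -0.003), so the numbers are not taken as a pairing. The difference between brains in the share of tags 5′ of the midpoint kept its sign in each of 9 alternatives per gene, but not its size. With repeated positions counted once it went from 2.64 to 0.34 percentage points in Mapt and from 1.88 to 0.13 in Map1b (exact permutation p = 0.914 for both), and without library 2 of brain 2 to 1.09 and 0.46. Leaving out a library gave -2.71 to -1.01 points in Map2, 1.09 to 4.40 in Mapt, 0.46 to 3.28 in Map1b and 3.87 to 7.20 in Dclk1. Cluster counts follow the height: 86, 29, 72 and 70 at 5 or more and 4, 4, 7 and 4 at 20 or more (Map2, Mapt, Map1b, Dclk1). Counting repeated positions once left 10 in Map2. Leaving out a library gave 14 to 22 in Map2, 11 to 13 in Mapt, 25 to 34 in Map1b and 10 to 15 in Dclk1. The tallest clusters held 0 to 25 tags per library, which limits what can be seen in any of them.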
